A study of Mus musculus with 14 samples.

Results

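Glycolysis breaks glucose down to pyruvate in the cytosol. The enzyme encoded by *Gapdh* reduces NAD+ to NADH midway along the pathway, and lactate dehydrogenase returns NADH to NAD+ when pyruvate becomes lactate. Nicotinamide (NAM) is a precursor of NAD+, and many tumors take up glucose avidly and release lactate even where oxygen is present. The genes described here are *Slc2a1*, *Hk1*, *Hk2*, *Gpi1*, *Pfkp*, *Aldoa*, *Pgk1*, *Eno1*, *Pkm* and *Ldha*, which run from the entry of glucose into the cell to lactate. They were chosen by symbol, and all 10 were found among the 56414 genes listed, each in 1 row.

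Bulk RNA-seq of whole tumors was available for 14 tumors of C57Bl/6 mice, with 1 polyA library per tumor. M/D-driven tumors (4 untreated, 4 NAM-treated) arose in female mice that were 6 to 9 weeks old when implanted with a 50 mg pellet releasing medroxyprogesterone acetate (MPA) over 90 days, and that were then gavaged repeatedly with 200 µL of the carcinogen 7,12-dimethylbenz[a]anthracene (DMBA) at 5 mg per mL. AT3 tumors (3 untreated, 3 NAM-treated) grew from cells of the mouse mammary carcinoma line AT3, injected under the skin of female mice, whose age is given only as a range over all mice of the study. Mice were randomized once tumors reached 0.25 cm2, and NAM-treated mice then drank water with 0.5% NAM for 10 days, the MPA pellet and DMBA being common to both M/D groups and absent from both AT3 groups. M/D-driven tumors arise from the cells of the host, whereas all AT3 tumors stem from 1 cell line, so that the spread between AT3 tumors is not that of independent carcinomas. In whole tumors, fewer cells of a type and less RNA per cell cannot be told apart.

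Reads recovered per tumor ranged from 40936868 to 84178009. Several tumors stood apart in their marker genes. The summed normalized count of 9 epithelial markers was 7798 in NAM-treated M/D tumor 1, the only M/D-driven tumor of experiment 2, against 263320 to 1040470 in the other M/D-driven tumors, and that of 8 B cell and precursor markers was 339307 against 736 to 2500. Not all of these 8 were high in NAM-treated M/D tumor 1, as *Rag1* had 560 reads, the fewest of the M/D-driven tumors, and *Ms4a1* had 318. The sum of 9 skeletal muscle markers reached 287249 in NAM-treated M/D tumor 4 and 93535 in NAM-treated M/D tumor 2, against 258 to 31024 in the other M/D-driven tumors. The sum of 6 neutrophil markers was 301735 to 396737 in untreated M/D tumors 3 and 4 and 177162 in NAM-treated M/D tumor 2, against 689 to 29729 in the other M/D-driven tumors. In AT3 tumors, the muscle sum was 11147, 301 and 19043 in untreated and 25373, 300 and 1950 in NAM-treated tumors. The sum of 7 fibroblast markers was 70631, 219841 and 87370 in untreated and 111944, 188774 and 307542 in NAM-treated AT3 tumors. Calls are therefore also given without single tumors or the M/D muscle pair where these change them.

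Promoter sequences of 4 of these genes are shown first, taken from both directions of the difference between tumor models described below. *Ldha* and *Pgk1* were higher and *Hk2* and *Pfkp* lower in untreated AT3 than in untreated M/D-driven tumors. In the matches counted below, the 4 genes do not stand for the other genes of their direction. Each run holds the 250 bases before the start of the gene, read 5′ to 3′ along the gene (RefSeq, GRCm38.p6). They lie at chr7:46845554-46845803 on the plus strand (*Ldha*), chrX:106186850-106187099 on the plus strand (*Pgk1*), chr6:82774455-82774704 on the minus strand (*Hk2*) and chr13:6648772-6649021 on the minus strand (*Pfkp*). Capitals mark ACGTG or its reverse complement CACGT, 1 of 2 forms of the core at which hypoxia-inducible factors are known to bind and which also occurs within the E-box CACGTG.
Ldha: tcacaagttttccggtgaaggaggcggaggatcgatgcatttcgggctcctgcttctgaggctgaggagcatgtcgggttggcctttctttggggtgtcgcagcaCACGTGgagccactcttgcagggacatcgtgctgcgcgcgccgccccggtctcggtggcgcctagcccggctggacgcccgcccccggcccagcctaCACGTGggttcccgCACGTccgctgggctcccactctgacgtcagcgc
Pgk1: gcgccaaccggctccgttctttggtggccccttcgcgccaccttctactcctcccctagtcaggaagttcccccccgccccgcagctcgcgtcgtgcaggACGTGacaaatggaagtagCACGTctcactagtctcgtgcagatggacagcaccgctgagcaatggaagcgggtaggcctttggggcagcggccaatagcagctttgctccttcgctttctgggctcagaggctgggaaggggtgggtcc
Hk2: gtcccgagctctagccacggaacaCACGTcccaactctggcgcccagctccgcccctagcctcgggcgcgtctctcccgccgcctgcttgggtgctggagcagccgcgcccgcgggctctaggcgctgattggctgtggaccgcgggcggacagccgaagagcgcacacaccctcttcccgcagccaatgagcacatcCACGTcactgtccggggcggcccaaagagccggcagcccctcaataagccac
Pfkp: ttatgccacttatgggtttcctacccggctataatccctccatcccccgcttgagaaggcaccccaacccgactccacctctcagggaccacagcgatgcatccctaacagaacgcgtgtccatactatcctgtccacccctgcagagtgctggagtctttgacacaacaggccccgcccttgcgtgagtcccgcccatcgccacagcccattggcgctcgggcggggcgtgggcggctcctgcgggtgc

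In the *Ldha* promoter, 5 matches were found on either strand, 4 of which come from 2 copies of the palindrome CACGTG, where both strands match and overlap. *Pgk1* held 2 matches, *Hk2* held 2, and *Pfkp* held 0. Of the other genes that were higher in AT3 tumors, *Slc2a1* held 1 match in its 250 bases. *Gpi1*, *Aldoa*, *Eno1* and *Pkm* held 0. The other form of the hypoxia core, GCGTG or CACGC, was counted in windows that also hold the 50 bases after the start, and occurred 4 times for *Pfkp*, 2 times for *Ldha* and 0 times for *Pgk1* and *Hk2*. Over all windows of RefSeq starting 250 bases before and ending 50 bases after a gene start, ACGTG on either strand was present in 19.6% of 32851 windows and in 8 of the 17 windows of the glycolysis genes. Counted by gene, it was present in 21.8% of 27025 genes and in 7 of the 10. For *Hk1*, *Aldoa* and *Pkm* it was present only at further starts, 859 to 39487 bases from the listed start of the gene. A gene with more starts has more windows in which a match can fall. GCGTG was present in 35.15% of all genes and in 5 of the 10, and CACGTG in 8.09% of all genes and in 1 of the 10. A match describes the letters of the window and was not tested for binding.

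The clearest differences in these genes lay between tumor models. Relative to untreated M/D-driven tumors, untreated AT3 tumors had more mRNA of the glucose transporter *Slc2a1* and of 6 enzymes from *Gpi1* down to *Ldha*, by 2.01-fold to 6.38-fold, whereas *Hk2* and *Pfkp* were lower. As the models had been normalized apart, values were rescaled over all 14 tumors for this comparison, and genes were called where they differed at least 1.5-fold with an adjusted p up to 0.05. Of the 10 genes, 7 were called higher and 2 lower, where 23.4% and 27.4% of all 21560 genes tested were called in these directions. The median log2 fold change was 1.32 over the 10 genes and −0.04 over all genes tested.

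The entry of glucose and its phosphorylation did not move as one. *Slc2a1*, which encodes the widely expressed glucose transporter GLUT1, had a rescaled count of 3748 ± 1592 (SD, n = 4) in M/D-driven and 8420 ± 755 (SD, n = 3) in AT3 tumors, and every AT3 tumor exceeded every M/D-driven tumor (log2 fold change 1.25, standard error 0.30, limma adjusted p = 0.0089). *Hk1*, the broadly expressed hexokinase, which commits glucose to the cell as glucose-6-phosphate, stood at 13629 ± 2752 and 15448 ± 5388, a difference within the spread between tumors (log2 fold change 0.15, standard error 0.26, limma adjusted p = 0.66). *Hk2*, the inducible hexokinase of muscle and of many tumors, was lower in AT3 tumors, at 976 ± 562 (SD, n = 3) against 2194 ± 616 (SD, n = 4) in M/D-driven tumors. The groups overlapped, since untreated AT3 tumor 2 reached 1622 and the lowest M/D-driven tumor stood at 1368 (log2 fold change −1.26, standard error 0.38, limma adjusted p = 0.023). The *Hk2* call was lost without untreated M/D tumor 3 (−1.13, adjusted p = 0.058), without untreated AT3 tumor 1 (−0.98, adjusted p = 0.096) and without untreated AT3 tumor 3 (−1.11, adjusted p = 0.086).

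In the steps that follow, *Gpi1*, the isomerase that makes fructose-6-phosphate, and *Pfkp*, the platelet-type phosphofructokinase at the main point of control, differed in opposite directions. *Gpi1* varied little between untreated M/D-driven tumors, at 16840 ± 404 (SD, n = 4), and reached 44479 ± 4714 (SD, n = 3) in AT3 tumors (2.63-fold, limma adjusted p = 0.00059). *Pfkp* fell from 4949 ± 678 in M/D-driven to 2632 ± 275 in AT3 tumors, without overlap (log2 fold change −0.91, standard error 0.18, limma adjusted p = 0.0040). The other phosphofructokinase genes went the other way, as *Pfkl*, the liver-type gene, was 2.13-fold and *Pfkm*, the muscle-type gene, 1.78-fold higher in AT3 tumors.

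Every measured step from aldolase to lactate was higher in AT3 tumors. *Aldoa*, which splits fructose-1,6-bisphosphate, rose 4.06-fold, from 34828 ± 6278 to 141197 ± 26571. *Pgk1*, which forms ATP from 1,3-bisphosphoglycerate, showed the largest difference of the 10 genes, at 7590 ± 1933 (SD, n = 4) in M/D-driven and 48616 ± 14623 (SD, n = 3) in AT3 tumors (log2 fold change 2.67, standard error 0.31, limma adjusted p = 0.00035). *Eno1*, which makes phosphoenolpyruvate, was 2.98-fold higher, and *Pkm*, which makes pyruvate and ATP, was 2.01-fold higher. *Ldha*, the lactate dehydrogenase subunit that favors the making of lactate, stood at 54904 ± 9435 in M/D-driven and 208086 ± 27635 in AT3 tumors (log2 fold change 1.93, standard error 0.26, limma adjusted p = 0.00066). Groups did not overlap for any of these 5 genes. Over all 10 genes, no overlap was seen for 7 higher and 1 lower gene, against 25.9% and 28.2% of all genes tested.

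The steps that are not among the 10 genes followed the same pattern. *Gapdh*, where NAD+ is reduced, was 4.92-fold higher in AT3 tumors (16918 ± 3632 against 82214 ± 11371), *Tpi1* was 3.86-fold and *Pgam1* 4.10-fold higher, all with limma adjusted p values of at most 0.00062. *Eno1b*, a retrogene copy of *Eno1*, was 2.23-fold higher and carried 0.540 to 0.810 times the count of *Eno1* in every tumor, so that reads may be shared between the 2 genes and the level of *Eno1* is uncertain to that extent. How the authors' counting treated reads that match several processed copies of *Aldoa*, *Pgk1*, *Pkm* or *Ldha* is not given in the sources used here. *Aldoart1*, a retrogene of *Aldoa*, was 4.26-fold higher as well.

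**Figure D1:**
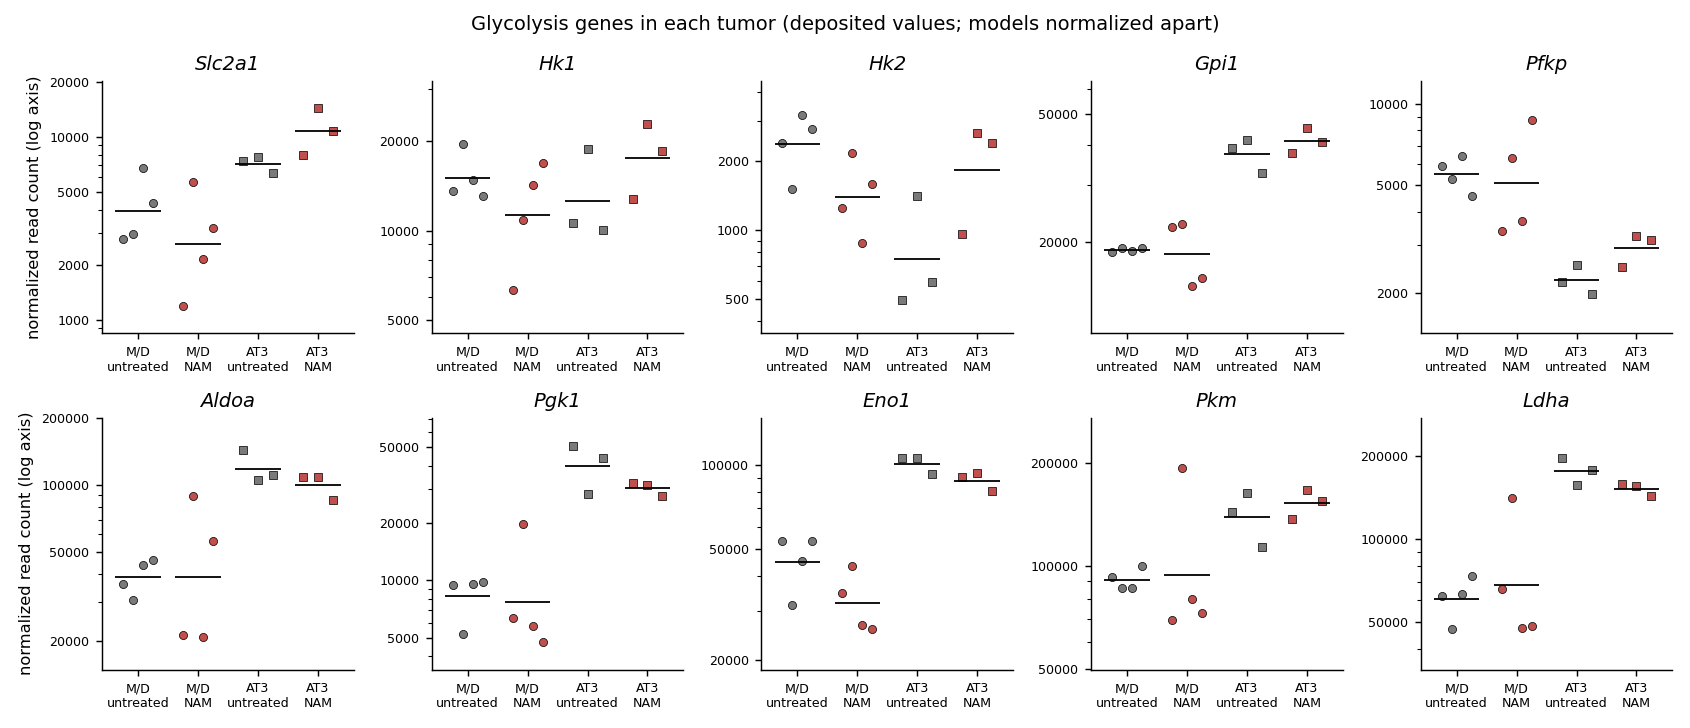
Normalized read count (log axis, deposited values) of the 10 genes in each tumor, by model and treatment. Circles are M/D-driven and squares AT3 tumors, grey is untreated and red NAM-treated, and black bars are geometric means; models were normalized apart, so that levels across models are compared in the text after rescaling. Untreated squares lie above all untreated circles for *Gpi1*, *Aldoa*, *Pgk1*, *Eno1*, *Pkm* and *Ldha* and below them for *Pfkp*, whereas for *Slc2a1* 1 untreated square (6320) lies below 1 untreated circle (6738).

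Values also differed with transcript length. Across all genes tested, AT3 tumors had lower values for longer transcripts, with a median log2 difference of 0.59 for genes whose longest annotated transcript has 1000 to 2000 bases and of −1.19 for those of 6000 bases and more. *Aldoa* (1549 bases), *Ldha* (1815), *Pgk1* (1825), *Eno1* (2027), *Pkm* (2432), *Gpi1* (3195) and *Slc2a1* (3260) stood above the upper quartile of their own length class. *Hk1* (4278 bases), *Hk2* (5513) and *Pfkp* (8681) lay within the quartiles of theirs. After removal of each tumor's trend with length and GC content, the same 7 genes were called higher and *Hk1* joined them (log2 fold change 0.70), where 21.1% of all genes were called higher. *Hk2* was then no longer called (−0.52), and *Pfkp* had a log2 difference of 0.048, while 27.2% of all genes were called lower. The low *Hk2* and *Pfkp* of AT3 tumors thus hold only on values that keep the trend, and its part in them was not tested further. The trend was removed by the longest annotated transcript of each gene, and which transcripts these tumors express was not examined.

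The genes around the pathway were counted in the same comparison, where 23.4% of all genes were higher and 27.4% lower, and several of the lists lie near these shares. Of 18 other glycolysis genes tested, 10 were higher and 5 lower in AT3 tumors. Next to *Gapdh*, *Pgam1* and *Tpi1*, which rose most, the genes that fell most were *Pfkfb4* and *Pfkfb3*, whose bifunctional enzymes set the level of the activator of phosphofructokinase, and *Slc2a3*, a glucose transporter of high affinity. *Pfkfb4* had a rescaled count of 1537 ± 808 in M/D-driven and 126 ± 28.7 in AT3 tumors (log2 fold change −3.44), *Slc2a3* had 175 ± 39.9 and 25.5 ± 13.3 (−2.85), and *Pfkfb3* had 1597 ± 434 and 491 ± 136 (−1.69). Among 14 hypoxia response genes, 11 were higher and 0 lower, with a median log2 fold change of 1.99, led by *Bnip3* (23.1-fold), *Ankrd37* (15.7-fold) and *Car9* (11.4-fold). Of 8 regulators of the pathway, *Vhl* was higher, whereas *Epas1* (log2 fold change −2.91), *Txnip* (−1.74), *Hif1a* (−1.35) and *Arnt* were lower. With each of the 7 tumors left out, *Hif1a* and *Eno3* were called in 3 refits each, *Arnt* in 5 and *Egln3* in 6. The other called genes of these lists were called in all 7. With the length and GC trend removed (21.1% of all genes higher, 27.2% lower), 7 other glycolysis genes were higher and 5 lower. Of the hypoxia response genes 13 were then higher and 0 lower, and of the regulators 1 was higher and 3 lower.

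Lactate and pyruvate handling gave 4 higher genes of 14, with *Bsg* (5.09-fold), which escorts lactate transporters to the membrane, *Mpc2* (3.19-fold) and *Pdk3* (2.59-fold) ahead, and 1 lower gene, *Pdk4* (log2 fold change −5.10). The shuttles that carry cytosolic NADH to mitochondria were split, with 4 of 10 genes higher, among them *Mdh1* (2.64-fold), and 3 lower, namely *Slc25a13* (−3.98), *Gpd2* (−1.95) and *Gpd1* (−1.64). In the pentose phosphate pathway 2 of 8 genes were higher and 4 lower, led by *H6pd* (−2.73) and *G6pdx* (−1.59), the entry enzyme. Gluconeogenesis gave 2 higher genes and 1 lower gene of 5, the latter being *Pck1* (−8.39), which is abundant in fat. Of 8 proliferation genes, 4 were higher and 0 lower. With each of the 7 tumors left out, the higher gluconeogenesis genes *Pck2* and *G6pc3* were called in 1 refit each. *Top2a* was called in 4, *Pdk1* and *Slc25a12* in 5 each, and the other called genes of these lists in all 7. With the length and GC trend removed, 2 shuttle, 1 pentose phosphate, 1 gluconeogenesis and 5 proliferation genes were higher. Counts of lower genes and those of lactate and pyruvate handling stayed the same.

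Markers of other cells moved with the model. The summed normalized count of adipocyte markers after rescaling over all tumors was 18889 to 57855 in untreated M/D-driven and 6279 to 10741 in untreated AT3 tumors, and that of epithelial markers was 286609 to 931627 and 97232 to 121198. Of these lists, 5 of 5 adipocyte, 6 of 9 epithelial, 4 of 8 macrophage and 4 of 5 endothelial markers were called lower in AT3 tumors, and none was called higher. Their part in the glycolysis results was not tested. Model, experiment, tumor site and origin cannot be told apart.

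In M/D-driven tumors, none of the 10 genes was called between NAM-treated and untreated tumors when genes had to change at least 1.5-fold with p up to 0.05 before adjustment. These thresholds were passed by 6.22% of all 21700 genes tested (3.19% in the lower direction). Adjusted p values of the 10 genes were 0.73 or more. Groups overlapped for each gene, against 4.43% of all genes without overlap. The median log2 fold change was −0.11 over the 10 genes and 0.01 over all genes tested.

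*Hk2* came closest. Its normalized counts were 2401, 1512, 3189 and 2754 in untreated and 1244, 2164, 877 and 1588 in NAM-treated tumors. NAM-treated tumors 1 and 3 lay below all untreated tumors, while 2 and 4 lay among them (log2 fold change −0.77, standard error 0.34, just short of the thresholds, limma adjusted p = 0.73). *Slc2a1* stood at 2778, 2954, 6738 and 4374 in untreated and at 1189, 5696, 2140 and 3175 in NAM-treated tumors. NAM-treated tumors thus spread 4.79-fold, with tumors 1 and 3 below the untreated group and 2 and 4 within it (log2 fold change −0.60, standard error 0.49, limma adjusted p = 0.80). For *Eno1*, counts were 53242, 31519, 45260 and 53356 without and 34699, 43345, 26610 and 25757 with NAM (log2 fold change −0.49, standard error 0.25, limma adjusted p = 0.74).

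The other lower steps differed widely between tumors of a group. *Aldoa* had counts of 35798, 30480, 43789 and 46185 in untreated and of 21306, 89715, 20749 and 55849 in NAM-treated tumors. NAM-treated tumors 2 and 4 lay above and 1 and 3 below the whole untreated group (log2 fold change 0.00, standard error 0.48). *Ldha* had counts of 62369, 47163, 63407 and 73341 in untreated and of 65695, 140900, 47842 and 48434 in NAM-treated tumors (log2 fold change 0.16, standard error 0.35). NAM-treated tumor 2 alone was higher than every other M/D-driven tumor for 5 of the 10 genes, namely *Gpi1*, *Aldoa*, *Pgk1*, *Pkm* and *Ldha*, whereas NAM-treated tumor 1 was the lowest for *Slc2a1*, *Hk1*, *Pfkp* and *Pkm*. The coefficient of variation of *Pkm* was 7.31% in untreated and 57.9% in NAM-treated tumors, and that of *Gpi1* was 1.36% and 23.3%, differences in spread that were not tested.

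*Hk1* counts were 13625, 19540, 14798 and 13065 in untreated and 6338, 10846, 14219 and 16891 in NAM-treated tumors, of which NAM-treated tumors 1 and 2 lay below and 3 and 4 within the untreated range (log2 fold change −0.41, standard error 0.31, limma adjusted p = 0.79). For *Gpi1*, the untreated tumors were nearly even at 18635.5, 19095, 18657 and 19088.5, while NAM-treated tumors stood at 22222, 22774, 14546.5 and 15378, tumors 1 and 2 above and 3 and 4 below all untreated ones (log2 fold change −0.04, standard error 0.19, limma adjusted p = 0.97). *Pfkp* counts of 5895, 5301, 6445 and 4564.5 in untreated tumors compared with 3374, 6336, 3678 and 8708 in NAM-treated tumors (log2 fold change −0.11, standard error 0.32, limma adjusted p = 0.96). NAM-treated tumor 4 had the highest and NAM-treated tumor 1 the lowest *Pfkp* value of the M/D-driven tumors. *Pgk1* had normalized counts of 9462, 5199, 9595 and 9823 in untreated and of 6374, 19846, 5783 and 4748 in NAM-treated tumors (log2 fold change −0.10, standard error 0.45, limma adjusted p = 0.97). *Pkm* had normalized counts of 92654, 86055, 86109 and 100091 in untreated and of 69424, 194273, 79840 and 72769 in NAM-treated tumors (log2 fold change 0.05, standard error 0.33, limma adjusted p = 0.98). In both genes NAM-treated tumor 2 stood far above the other tumors.

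The calls depend on which tumors are kept. Without untreated M/D tumor 2, *Hk2* (log2 fold change −0.99, limma adjusted p = 0.58) and *Eno1* (−0.66, adjusted p = 0.62) were past the thresholds, and without NAM-treated M/D tumor 2 so were *Hk2* (−0.98, adjusted p = 0.33) and *Eno1* (−0.64, adjusted p = 0.35). Over all genes, 1139 of 21710 and 1511 of 21837 were called lower in these refits. Without NAM-treated tumors 2 and 4, the pair with the most skeletal muscle marker counts, *Slc2a1* (−1.30), *Hk2* (−1.19), *Aldoa* (−0.87) and *Pfkp* (−0.64) were past the thresholds, with limma adjusted p values of 0.36 or more. Calls over all genes rose as well in that refit, with 1751 of 21479 genes lower. That refit left 2 NAM-treated tumors, among them tumor 1, the only M/D-driven tumor of experiment 2. Tumor 1 had an epithelial marker sum of 7798 and a B cell and precursor marker sum of 339307. Of all M/D-driven tumors, tumor 1 had the lowest *Slc2a1* and *Pfkp*, and the other tumor left had the lowest *Hk2* and *Aldoa*. Muscle itself makes much *Aldoa*. The part of muscle in these values was not tested beyond the omission of the pair, which cannot separate it from the make-up of NAM-treated tumor 1. Within experiment 1, that is without NAM-treated M/D tumor 1, 0 of the 10 genes were called, and *Hk2* had a log2 fold change of −0.72 (limma adjusted p = 0.81).

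Of the other glycolysis genes in M/D-driven tumors, *Pfkfb4* was lower with NAM, at 1154, 763, 2322 and 2665 in untreated and 274, 899, 323 and 426 in NAM-treated tumors. The groups overlapped through NAM-treated tumor 2 alone, and this tumor and untreated tumors 3 and 4, the 3 with most neutrophil marker counts, had the highest *Pfkfb4* of their groups (log2 fold change −1.83, limma adjusted p = 0.73). In these 3 tumors the neutrophil sum was almost all *S100a8* and *S100a9*. *Csf3r*, *Cxcr2* and the keratin gene *Krt14* also had most reads there. *Retnlg* did not set NAM-treated tumor 2 (473 reads) above untreated tumor 1 (564), and *Ly6g* had at most 35 reads. *Pfkm* (log2 fold change 0.89) and *Pfkfb1* (0.86) were higher, and *Pfkm*, the phosphofructokinase of muscle, reached 8231 in NAM-treated tumor 4, the tumor with most muscle marker counts. The part of neutrophils in *Pfkfb4* was not tested, and all 6 neutrophil markers had log2 fold changes below 0 with NAM (median −1.27), none of them called. Of the NADH shuttle genes, *Gpd2* (−0.89) was lower, of the pentose phosphate genes *Pgd* (−0.67), of the hypoxia genes *Ndrg1* (−1.14), and of the lactate and pyruvate genes *Slc16a7* (0.84) was higher, each being the sole call of its list. Shares of all genes were 3.03% higher and 3.19% lower. *Pfkfb4* (−2.36 to −1.56), *Gpd2* (−1.08 to −0.69) and *Pfkfb1* (0.79 to 0.93) stayed past the thresholds without each M/D-driven tumor and without the muscle pair. In these 9 refits *Pfkm* was called in 2 (0.49 without NAM-treated tumor 4 and 0.35 without the muscle pair, neither called), *Ndrg1* in 4 (−0.74 without NAM-treated tumor 1) and *Slc16a7* in 5 (0.63 without the muscle pair). *Pgd* was called in 8, being lost without NAM-treated tumor 4 (−0.57). No gene of the gluconeogenesis, regulator or proliferation lists was called. *Gapdh* (log2 fold change 0.11), *Tpi1* (−0.23) and *Pgam1* (−0.11) were not called.

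In AT3 tumors, *Slc2a1* and *Hk2*, the entry and the first step of the pathway, were higher with NAM at the same thresholds, and none of the 10 genes was lower. These thresholds were passed by 12.2% of all 19281 genes in the higher and 10.9% in the lower direction, so that 2 of 10 genes is close to the background. The median log2 fold change was 0.14 over the 10 genes and −0.05 over all genes tested.

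*Hk2* had normalized counts of 499, 1414 and 594 in untreated and of 962, 2644 and 2399 in NAM-treated AT3 tumors. Untreated tumor 2 exceeded NAM-treated tumor 1, and the groups overlapped (2.44-fold, log2 fold change 1.29, standard error 0.48, limma adjusted p = 0.17). *Slc2a1* had counts of 7416, 7720 and 6320 in untreated and of 7938, 14396 and 10732 in NAM-treated tumors. It was the only one of the 10 genes without overlap, which 22.6% of all genes showed (log2 fold change 0.59, standard error 0.25, limma adjusted p = 0.20). *Hk1* had counts of 10597, 18889 and 10071 in untreated and of 12823, 22781 and 18532 in NAM-treated tumors, with untreated tumor 2 above 2 of the NAM-treated tumors (log2 fold change 0.48, standard error 0.31, limma adjusted p = 0.35).

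The lower steps had values within their spread. *Pgk1* had counts of 50949, 28279 and 44007 in untreated and of 32251, 31452 and 27579 in NAM-treated tumors (log2 fold change −0.39, standard error 0.26, limma adjusted p = 0.36). Untreated tumor 2 again lay with the NAM-treated tumors. *Aldoa*, *Eno1* and *Ldha* had log2 fold changes of −0.24, −0.20 and −0.21, and *Gpi1*, *Pfkp* and *Pkm* of 0.13, 0.40 and 0.14, with limma adjusted p values of 0.26 or more. NAM-treated AT3 tumor 2 had the highest value of all AT3 tumors for 6 genes (*Slc2a1*, *Hk1*, *Hk2*, *Gpi1*, *Pfkp* and *Pkm*), whereas untreated AT3 tumor 1 had it for the remaining *Aldoa*, *Pgk1*, *Eno1* and *Ldha*, for which NAM-treated AT3 tumor 3 was the lowest.

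*Gpi1* counts were 39285, 41390 and 32695 in untreated and 37804, 45289 and 40969.5 in NAM-treated AT3 tumors (log2 fold change 0.13, standard error 0.21, limma adjusted p = 0.71). *Pfkp* counts were 2182.5, 2544 and 1984.5 without and 2494, 3257 and 3131 with NAM, and only NAM-treated tumor 1 fell within the untreated range (log2 fold change 0.40, standard error 0.21, limma adjusted p = 0.26). *Aldoa* stood at 143269, 105079 and 110484 in untreated and at 108770, 108963 and 85523 in NAM-treated tumors, where NAM-treated tumor 3 was below all others (log2 fold change −0.24, standard error 0.24, limma adjusted p = 0.54). The fold changes of *Aldoa* and *Pfkp* had opposite signs, and neither passed the thresholds. *Pkm* counts were 143815, 163176 and 113836 in untreated and 136834, 167236 and 155482 in NAM-treated tumors, with wide overlap (log2 fold change 0.14, standard error 0.25, limma adjusted p = 0.74). *Eno1* reached 105729, 105700 and 92925 in untreated and 90325, 93675 and 80617 in NAM-treated tumors, the latter overlapping the former only through tumor 2 (log2 fold change −0.20, standard error 0.22, limma adjusted p = 0.56). *Ldha* reached 195747, 156015 and 177110 in untreated and 157971, 154909 and 143438 in NAM-treated tumors, where untreated tumor 2 lay among the NAM-treated ones (log2 fold change −0.21, standard error 0.23, limma adjusted p = 0.58).

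The genes with higher and those with lower values after NAM also differ in length. The median log2 fold change of all genes with NAM in AT3 tumors went from −0.43 for transcripts of 1000 to 2000 bases to 0.70 for those of 6000 bases and more, and 8 of the 10 genes lay within the quartiles of their length class. *Hk2* and *Slc2a1* lay above them. After the same trend was taken out of each AT3 tumor, 0 of the 10 genes were called, against 8.77% of all genes higher and 7.3% lower. *Hk2* then had a log2 fold change of 0.68 (limma adjusted p = 0.23) and *Slc2a1* of 0.45 (adjusted p = 0.22, under the fold threshold), *Pfkp* turned to −0.36, and *Aldoa* and *Ldha* turned to 0.14 and 0.13.

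**Figure D2:**
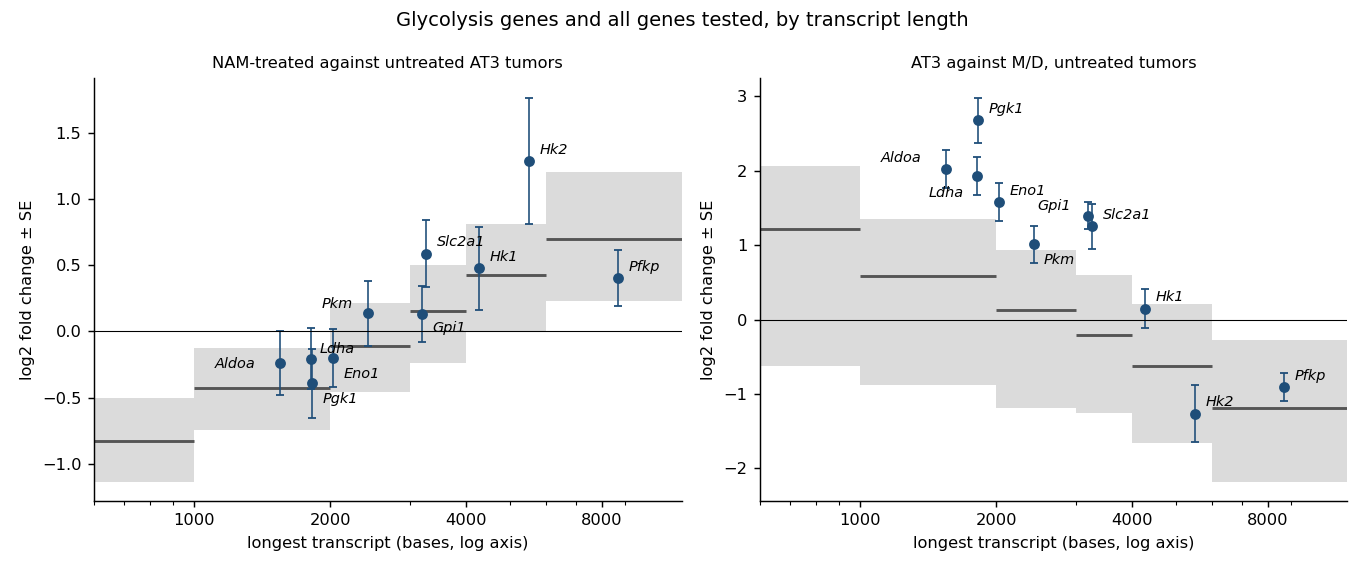
Log2 fold change ± standard error of the 10 genes (blue points) against the length of the longest annotated transcript (log axis), with the median (grey lines) and quartiles (grey bands) of all genes tested in each length class. With NAM in AT3 tumors (left) *Hk2* and *Slc2a1* sit above the band of their class and the other 8 genes within it; between untreated models (right) 7 genes sit above their band and *Hk1*, *Hk2* and *Pfkp* within it.

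Both AT3 calls were kept in only 2 of the 6 refits with a tumor left out. In the other refits calls over all genes fell as well, from 4458 to between 1618 and 2637. *Hk2* was no longer past the thresholds without untreated AT3 tumor 1 (log2 fold change 0.99, limma adjusted p = 0.44), untreated tumor 3 (1.12, adjusted p = 0.38), NAM-treated tumor 2 (1.02, adjusted p = 0.49) or NAM-treated tumor 3 (1.09, adjusted p = 0.55), and *Slc2a1* was lost without the same tumors (log2 fold changes of 0.37 to 0.62). Without untreated AT3 tumor 2, *Hk2* (1.75, limma adjusted p = 0.045), *Hk1* (0.77, adjusted p = 0.070) and *Slc2a1* (0.64, adjusted p = 0.11) were higher and *Pgk1* (−0.64, adjusted p = 0.052) lower. Of all 18933 genes in that refit, 3455 were called higher and 3310 lower. Without NAM-treated tumor 1, *Hk2* (1.75, limma adjusted p = 0.037) and *Slc2a1* (0.80, adjusted p = 0.063) were higher, as were 3459 of all 19301 genes. The endothelial marker sum was 3655 to 4356 in untreated and 4946 to 7312 in NAM-treated AT3 tumors, with 4 of 5 markers called higher, and its part was not tested. Among untreated AT3 tumors, tumor 2 had the highest fibroblast marker sum (219841) and the lowest skeletal muscle marker sum (301). With NAM, 2 of 7 fibroblast markers were called higher. The part of fibroblasts and muscle was not tested either.

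Around the pathway in AT3 tumors, *Pfkfb2* (2.25-fold) and *Pfkfb3* (1.85-fold) were higher and *Eno2* (log2 fold change −0.83) was lower with NAM among the other glycolysis genes. The mitochondrial NADH shuttle gene *Gpd2* (2.25-fold) and *Gpd1l* (1.78-fold) were higher, as were *H6pd* (2.66-fold) and *G6pdx* (1.64-fold) of the pentose phosphate pathway and *Slc16a3* (1.55-fold), a lactate exporter, while *Mpc2* (−0.998) was lower. Of 8 regulators, 4 were higher and 0 lower, with *Epas1* (3.14-fold), *Hif1a* (1.80-fold) and *Txnip* (1.72-fold) ahead. Of 14 hypoxia response genes, *Ndrg1* (1.56-fold) was higher and *Bnip3* (−1.04), *Hilpda* (−0.87) and *Ankrd37* (−0.80) were lower, none of which was called once the length trend was removed. Of these genes, *Epas1*, *Gpd2*, *H6pd*, *Txnip* and *Hilpda* were past the thresholds with each of the 6 AT3 tumors left out, and the others with at most 4 of the 6. Of all genes, 12.2% were higher and 10.9% lower with NAM in AT3 tumors. *Mcm2* (1.65-fold) was the sole call of the proliferation list, and no gluconeogenesis gene was called. *Pgam1* had a log2 fold change of −0.58, *Tpi1* of −0.14 and *Gapdh* of −0.11, none of them called.

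**Figure D3:**
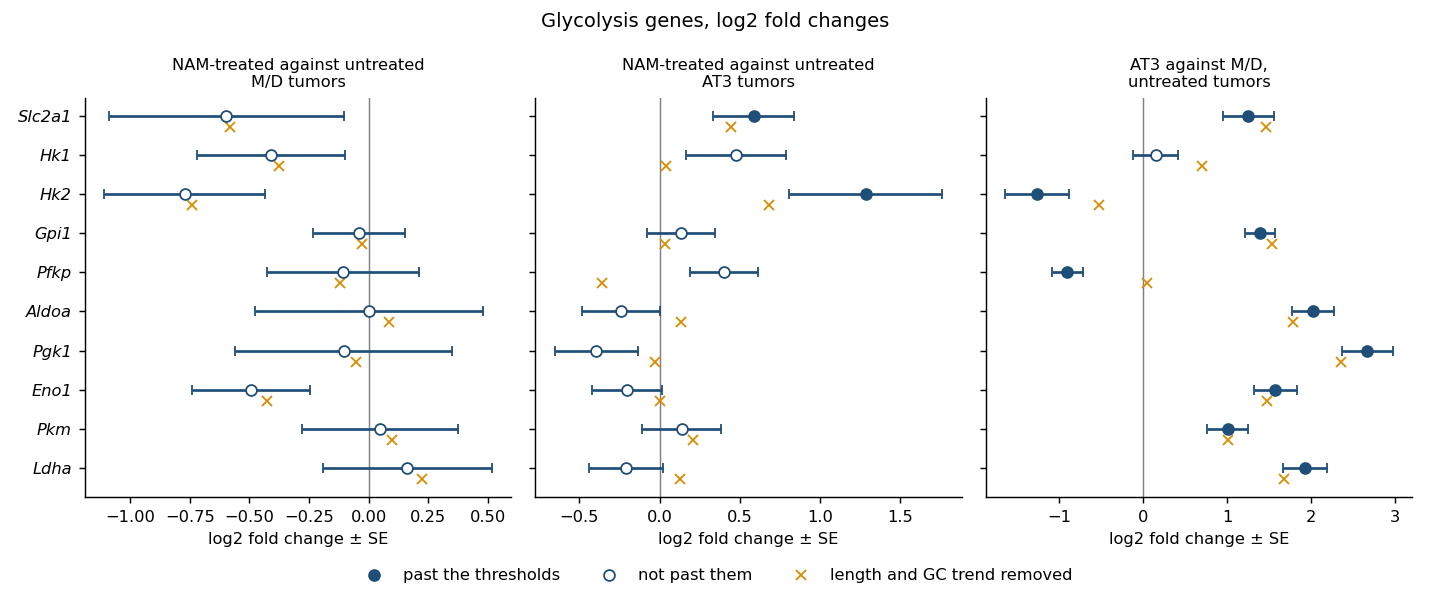
Log2 fold changes ± standard error of the 10 genes in the 3 comparisons (limma), with filled points past the thresholds of the comparison, open points not past them, and crosses for values after removal of each tumor's trend with length and GC content. Each panel has its own scale, and points are filled for 0 genes in M/D-driven, 2 in AT3 and 9 in the comparison of models.

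The effect of NAM was also compared between models directly, over all 14 tumors. *Hk2* was the 1 gene of the 10 past the same thresholds, which 7.9% of all 22710 genes passed in the same direction and 14.9% in either direction. Its log2 effect was 2.06 higher in AT3 than in M/D-driven tumors (standard error 0.64, limma adjusted p = 0.21), being −0.77 in the one and 1.29 in the other. This difference was past the thresholds with each of the 14 tumors left out in turn (1.77 to 2.52), and with the trend in length and GC content removed (1.47, limma adjusted p = 0.37), which 6.83% of all genes passed in this direction. *Slc2a1* (1.19, limma adjusted p = 0.38) and *Hk1* (0.89, adjusted p = 0.38) missed the thresholds, and the other 7 genes had log2 differences of −0.37 to 0.51.

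Leaving out single tumors added calls to this comparison. *Slc2a1* was called without NAM-treated M/D tumor 2 (1.56, limma adjusted p = 0.21), *Hk1* without NAM-treated M/D tumor 4 (1.08, adjusted p = 0.26), untreated AT3 tumor 2 (1.18, adjusted p = 0.20) or NAM-treated AT3 tumor 1 (1.11, adjusted p = 0.24), and *Pfkp* without NAM-treated M/D tumor 4 (0.76, adjusted p = 0.28). Over all genes, 1985 to 2461 were called higher in these refits, of 22454 to 22801 tested. Without the M/D pair with most muscle marker counts, 4 genes were called (*Slc2a1*, *Hk1*, *Hk2* and *Pfkp*). This refit too left 2 NAM-treated M/D tumors, among them tumor 1.

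Ratios of 2 genes within a tumor do not depend on how a tumor was scaled. They can still carry each tumor's trend with length and GC content, which was not removed from them. *Hk2* reached 0.176, 0.0774, 0.216 and 0.211 times the count of *Hk1* in untreated M/D-driven tumors and 0.0470, 0.0749 and 0.0590 times in untreated AT3 tumors. Untreated AT3 tumors thus lay just below the lowest M/D-driven tumor, number 2 (log2 difference −1.41, exact two-sided permutation test, p = 0.057, adjusted p = 0.21 over 15 ratio tests). With NAM the ratio was 0.0750, 0.116 and 0.129 in AT3 tumors, the lowest of them barely above the highest untreated value (log2 difference 0.81, exact permutation p = 0.10, the smallest this design can give).

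*Slc2a1* outnumbered *Slc2a3* by 14.5 to 28.3 times in untreated M/D-driven and by 233 to 647 times in untreated AT3 tumors (log2 difference 4.17, exact permutation p = 0.029, adjusted p = 0.21, the unadjusted value being the smallest this design can give). The AT3 ratios rest on 22, 23 and 12 reads of *Slc2a3*, and the log2 difference was 3.84 with a pseudocount of 5 on both genes. NAM-treated M/D tumor 1, the tumor with the highest B cell and precursor marker sum, had a ratio of 1.12 and *Slc2a3* counts of 1062. NAM-treated M/D tumor 3 had a ratio of 4.29. *Pfkp* stood at 0.460 to 0.708 times *Pfkl* in untreated M/D-driven and at 0.125 to 0.173 times in untreated AT3 tumors (log2 difference −1.995, exact permutation p = 0.029, adjusted p = 0.21), with the AT3 values hardly moving with NAM (0.155 to 0.164). *Ldha* exceeded *Ldhb*, the subunit common in oxidative tissue, 23.6 to 49.3 times in untreated M/D-driven and 63.6 to 75.6 times in untreated AT3 tumors (log2 difference 0.98, exact permutation p = 0.057, adjusted p = 0.21). The *Aldoa* to *Aldoc* ratio ranged from 1.92 to 20.5 in untreated M/D-driven tumors and covered the values of untreated AT3 tumors in part (16.2 to 23.2). In AT3 tumors it was 13.3 to 15.4 with NAM, below all untreated values (exact permutation p = 0.10, the smallest possible).

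**Figure D4:**
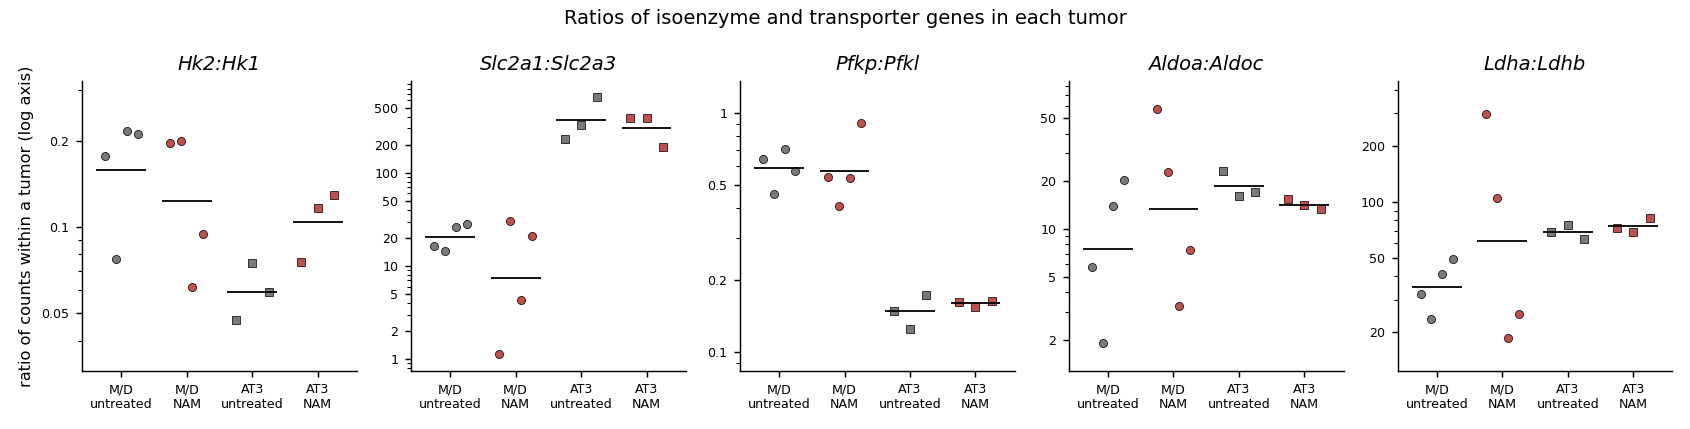
Ratio of the counts of 2 related genes within each tumor (log axis), with circles for M/D-driven and squares for AT3 tumors, grey for untreated and red for NAM-treated, and black bars at geometric means. *Slc2a1*:*Slc2a3* and *Pfkp*:*Pfkl* separate the untreated models, by log2 differences of 4.17 and −1.995. *Hk2*:*Hk1* and *Ldha*:*Ldhb* also do so, by −1.41 and 0.98, whereas *Aldoa*:*Aldoc* overlaps. NAM-treated M/D tumor 1 has the lowest *Slc2a1*:*Slc2a3* ratio, 1.12.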

How the data were processed

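Bulk RNA-seq libraries (TruSeq mRNA, paired-end) of 14 tumors were analyzed. Per the paper's methods and the labels, the authors mapped reads with STAR 2.4.0 on mm10, counted those on the constitutive regions of each Mouse FAST DB gene, and divided counts by DESeq2 size factors. The deposited values are thus a normalized signal per gene, with M/D and AT3 tumors normalized apart. Whole reads (tolerance 0.01) were recovered for 100% of values, and 40936868 to 84178009 reads per tumor make counting error of genes with many reads small beside the spread between tumors. It need not be small for genes with few reads, such as *Slc2a3* in AT3 tumors. Rows without a symbol, 30657 of 56414, hold 3.81 to 10.2% of the reads.

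Groups were taken from sample titles. Genes whose mean reached 10 in a group were fitted with limma 3.58.1 (R 4.3.3, mean-variance trend) on log2(normalized count + 1), which understates changes of low genes, and p values were adjusted by Benjamini-Hochberg over all genes tested. NAM effects and their difference between models were called where p before adjustment was up to 0.05 and the change at least 1.5-fold. Untreated models were compared after rescaling by median ratios over the 14 tumors, with the adjusted p held to the same limit. Ratios were tested by exact two-sided permutation. Standard errors are limma's. Each tumor was taken as 1 mouse, since the methods give sample numbers as mice. Alternatives included edgeR 4.0.16 and DESeq2 1.42.0 on recovered reads, other scalings, filters and pseudocounts, the replicate number as a block, each tumor left out, and removal of each tumor's trend with length and GC content (splines with 4 degrees of freedom, longest GENCODE transcript on GRCm38, found for 84.1 to 85.2% of the genes tested). The omission of the M/D pair with most muscle marker counts was added after the data were seen. The glycolysis genes and the lists were chosen with earlier results of these data known. From each list, up to 3 genes per direction with the largest changes are named, and *Gapdh*, *Tpi1*, *Pgam1* and gene copies always. Listed genes whose call between untreated models was lost with a tumor left out are named as well. 1 result of these lists is not reported here. Tests were tried on simulated data with 200 changed genes. Tables and plots were made with Python 3.11.15, pandas 2.3.3, numpy 2.4.6 and matplotlib 3.10.9.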

Additional observations from a re-analysis of the deposited data

Results flagged for a closer look

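Among 26 sets of 4 M/D-driven tumors (the 10 genes with *Gapdh*, *Tpi1* and *Pgam1*, untreated and NAM-treated), 3 held a tumor far from the others by Dixon's ratio on log2 values, where chance gives about 1 in 20. They were *Pgk1* in untreated tumor 2, which was low (ratio 0.941), and *Pkm* (0.864) and *Pgam1* (0.831) in NAM-treated tumor 2, which were high.

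Of the 10 genes, *Hk2* had a log2 effect of NAM that differed between models by the interaction test, at 2.06 (AT3 minus M/D). Among 95 genes tested over the 10 genes and the lists of related genes, 14 passed the thresholds used for NAM effects, with limma adjusted p values of 0.18 or more. Over all genes the share was 14.9%, and 14 of 95 lies at that background. The others of glycolysis were *Pfkfb4* (2.45), *Pfkfb2* (1.57), *Pfkfb1* (−1.41) and *Eno2* (−1.37). Among NADH shuttle genes the difference was 2.05 for *Gpd2* and 0.638 for *Slc25a13*. All 3 called pentose phosphate genes had a higher effect in AT3 tumors, namely *H6pd* (1.84), *G6pdx* (1.35) and *Pgd* (0.936). *Slc16a7* (−1.35), *Ndrg1* (1.78), *Epas1* (1.54) and *Arnt* (0.773) came from the lactate, hypoxia and regulator lists. In 15 refits, without each tumor or the muscle pair, *Arnt* was called in 3, *Slc16a7* and *Slc25a13* in 4 each, *Epas1* in 7 and *Eno2* in 12. The other listed genes were called in all 15. With the length and GC trend removed, 0 regulators were higher and 1 lower, while 3 NADH shuttle genes and 1 lactate and pyruvate gene were higher (6.83% of all genes higher).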

How the results depend on the processing

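For single genes, 676 values under alternatives kept direction and side of the thresholds, 23 gained and 22 lost a call, and 39 changed sign. In M/D-driven tumors, 1 gene (*Hk2*) instead of 0 was called lower with a pseudocount of 5, without a filter on low values, with TMM factors, with the edgeR quasi-likelihood test and with the DESeq2 Wald test, 4 without the pair with most muscle marker counts, and 0 to 2 with each tumor left out. In AT3 tumors, the 2 higher genes became 0 with the length and GC trend removed, 1 (*Hk2*) by the upper quartile or with the replicate block and the trend removed, 0 at an adjusted p of 0.05, and 0 to 3 with each tumor left out, where 0 to 1 genes were lower. For the difference between models, 1 higher gene became 0 at an adjusted p of 0.05, 4 without the muscle pair and 1 to 3 with each tumor left out. Between untreated models, the 2 lower genes became 0 with the trend removed, 1 with the replicate block and 1 to 2 with each tumor left out, while 6 to 8 genes were higher. Scaling within each model moved the median of all genes to −0.48 and ended the call of *Pkm* (adjusted p = 0.060). The upper quartile moved it to 0.10 in M/D-driven and −0.12 in AT3 tumors. Causes were not tested unless the construction of an alternative shows them (fewer tumors, a stricter threshold).

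Signs turned for the following values. In M/D-driven tumors these were *Gpi1* by the upper quartile (0.052), *Aldoa* with TMM factors (−0.033), *Pgk1* with edgeR (0.074) and DESeq2 (0.10), and, without the muscle pair, *Aldoa* (−0.87), *Pkm* (−0.29) and *Ldha* (−0.12). With each M/D-driven tumor left out, ranges were −0.14 to 0.071 (*Gpi1*), −0.36 to 0.094 (*Pfkp*), −0.40 to 0.30 (*Aldoa*), −0.56 to 0.13 (*Pgk1*), −0.30 to 0.19 (*Pkm*) and −0.19 to 0.33 (*Ldha*). In AT3 tumors, removal of the trend, without or with the replicate block, turned *Pfkp* to −0.36, *Aldoa* to 0.14, *Eno1* to 0.0026 and *Ldha* to 0.13, and *Pkm* ranged from −0.0050 to 0.25 with each tumor left out. For the difference between models, *Pfkp* became −0.20 with the trend removed, *Aldoa* 0.64 and *Pgk1* 0.049 without the muscle pair, and ranges with each tumor left out were −0.54 to 0.17 (*Aldoa*), −0.54 to 0.17 (*Pgk1*) and −0.056 to 0.44 (*Pkm*). Between untreated models, *Hk1* became −0.25 with scaling within each model and ranged from −0.12 to 0.30 with each tumor left out, and *Pfkp* became 0.048 with the trend removed. Ratios turned only with tumors left out, where log2 differences with NAM ranged from −0.59 to 0.14 for *Slc2a1*:*Slc2a3* in AT3, −0.26 to 0.12 for *Pfkp*:*Pfkl* in M/D-driven and −0.0022 to 0.23 for *Pfkp*:*Pfkl* in AT3 tumors.

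Replicate numbers were not taken as pairs: deviations of same-numbered tumors correlated at −0.44 to 0.11 in M/D-driven and −0.16 to 0.26 in AT3 tumors. With the replicate block, calls of the 10 genes with NAM were as without it, *Hk2* in AT3 tumors reached a limma adjusted p of 0.027, and *Hk2* (0.082) and *Pkm* (0.077) were lost between untreated models. Paired ratios gave p values of 0.25 or more by an exact sign-flip test. In AT3 tumors and between untreated models only 3 replicate numbers are shared, and 0.25 is the smallest p that test can give there.

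Over all genes, calls with NAM in M/D-driven tumors went from 1350 to 859 at a minimum mean of 50, 2180 without a filter, 2095 with DESeq2, 714 with block and trend removed, 2685 without the muscle pair, and 784 to 2712 with each tumor left out. In AT3 tumors 4458 became 2640 with the trend removed, 2810 with the block as well, and 1618 to 6765 with each tumor left out. For the difference, 3377 became 2140 with the trend removed and 1838 to 4574 with each tumor left out. At an adjusted p of 0.05, these calls were 1, 1 and 0. The share of higher genes among calls went from 48.7% to 61.7% by the upper quartile, 60.6% with edgeR and 61.4% with DESeq2 in M/D-driven tumors, and from 46.0% to 29.8% with scaling within each model between untreated models.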
